A study of Mus musculus with 6 samples.

Results

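The nuclear-encoded genes of oxidative phosphorylation were examined by RNA-Seq in mouse naive CD4+ T cells (Naive) and in helper cells derived from them, of the interleukin-17-producing (Th17) and interferon-γ-producing (Th1) kinds. Members were chosen by gene symbol alone: every symbol starting with *Nduf*, *Uqcr*, *Cox4*, *Cox5*, *Cox6*, *Cox7*, *Cox8* or *Atp5*, and *Sdha*, *Sdhb*, *Sdhc*, *Sdhd* and *Cyc1*. This gave 93 of the 24223 genes in the count files, of which 86 passed the filter on low counts, as did 13607 genes in all. By role the 93 genes were 36 subunits of complex I, 7 assembly factors of complex I (*Ndufaf* genes), 4 subunits of complex II, 9 of complex III, 20 of complex IV, 15 of complex V and 2 genes, *Atp5s* and *Atp5sl*, whose symbols match the rule although they encode no subunit. *Ndufa4* and *Ndufa4l2* were counted with complex IV, since the Ndufa4 protein, first assigned to complex I, is a complex IV subunit.

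The 6 libraries were 2 per cell type. CD4+CD62L+ cells were isolated by kit from pooled lymph nodes and spleens of C57BL/6 mice aged 1 to 2 months, and the Naive libraries were made from these cells without culture. Th17 and Th1 cells were cultured for 5 days with antibodies to CD3 and CD28 and an antibody to IL-4. To this the Th17 cultures added an antibody to IFN-γ with TGF-β, IL-6, IL-1β and IL-23, and the Th1 cultures added IL-12 and IL-2. Culture and stimulation were therefore shared by both Th groups and absent from Naive, and their part cannot be told apart from that of the cell fate in a comparison with Naive. RNA from each preparation was poly(A)-selected and amplified by the Smart-seq2 reaction before sequencing.

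Oxidative phosphorylation moves electrons from NADH (through complex I) and succinate (through complex II) to complex III, cytochrome c and complex IV, where oxygen is reduced. The protons pumped on the way drive complex V, the ATP synthase. Resting naive T cells draw mostly on this pathway for ATP, whereas activated T cells add glycolysis and also enlarge their mitochondria. A core set of subunits carries the redox centres or the catalytic sites, and many small accessory (supernumerary) subunits stabilize the complexes. A few further subunits are encoded by the mitochondrial genome and were not analysed here.

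Library totals ranged from 17742158 to 69080017 counts, and levels are given below as counts per 1000000 (CPM) of library totals scaled by trimmed mean of M-values (TMM). The Th17 and Th1 libraries each held a defining transcript. *Il17a* was at 526 and 691 CPM in Th17 and below 1 CPM in the other 4 libraries. *Il12rb2* was at 338 and 281 CPM in Th1 against 3.76 to 11.1 CPM elsewhere. The summed level of 5 naive T cell genes did not set Naive apart. It was 2551 and 3923 CPM in Naive, 3031 and 2717 CPM in Th17, and 2340 and 3958 CPM in Th1. Transcripts of other cell types were present as well. The summed level of 7 neutrophil granule genes was 310 and 189 CPM in Naive, 2875 and 2774 CPM in Th17, and 27.4 and 39.3 CPM in Th1, while 4 macrophage genes summed to 36.7 and 17.5, 235 and 796, and 10.1 and 12.4 CPM. The summed level of 4 proliferation genes was 489 and 253 CPM in Naive, 716 and 622 CPM in Th17, and 2816 and 708 CPM in Th1. The part of other cells and of cycling in the results below was not tested. In bulk RNA, fewer cells of a type and less RNA per cell cannot be told apart.

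Promoter windows from the RefSeq table (assembly GRCm38.p6, from 250 bases before to 50 bases after the start) were found for 76 of the 93 members, and 73 of these were tested genes. The 4 printed here are the 150 bases upstream of members that recur in the comparisons below: *Ndufaf4*, lower in Th1, and *Ndufa11*, *Ndufv3* and *Cox5a*, higher in Th17. Capitals mark matches to GCGCATGC, the letters searched for the NRF1 motif, on either strand.
Ndufaf4, chr4:24897933-24898082, plus strand: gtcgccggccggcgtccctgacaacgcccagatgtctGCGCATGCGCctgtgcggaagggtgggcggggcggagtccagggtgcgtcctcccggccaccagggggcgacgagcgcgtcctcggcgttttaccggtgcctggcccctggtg
Ndufa11, chr17:56717612-56717761, plus strand: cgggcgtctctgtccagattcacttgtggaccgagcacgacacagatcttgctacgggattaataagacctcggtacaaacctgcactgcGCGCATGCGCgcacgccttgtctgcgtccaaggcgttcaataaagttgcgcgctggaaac
Ndufv3, chr17:31519965-31520114, plus strand: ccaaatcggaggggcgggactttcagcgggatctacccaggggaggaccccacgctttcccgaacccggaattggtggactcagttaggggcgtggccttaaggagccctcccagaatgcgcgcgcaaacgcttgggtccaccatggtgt
Cox5a, chr9:57521082-57521231, plus strand: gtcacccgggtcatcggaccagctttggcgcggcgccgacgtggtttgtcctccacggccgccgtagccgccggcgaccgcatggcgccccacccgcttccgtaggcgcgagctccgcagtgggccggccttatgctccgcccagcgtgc

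In *Ndufaf4* and *Ndufa11* the motif was present as a palindrome that matched on both strands, whereas the *Ndufv3* and *Cox5a* stretches held no match. NRF1 is a transcription factor known for its binding in promoters of respiratory genes. Over whole windows, GCGCATGC was found in 12 of the 73 tested members with a window, or 16.4%, against 5.39% of the 9864 tested genes with a window. The YY1 letters AANATGGC were found in 23.3% of the members and 8.75% of the tested genes, and the ETS letters CCGGAAG in 21.9% and 17.8%. Most members with the YY1 letters held them across or after the start, not in the upstream part. Their place in the other tested genes was not examined. The GC box GGGCGG was found in 45.2% of the members and 63.2% of the tested genes, while the E-box CACGTG (9.59% and 9.97%) and the TATA box TATAAA (6.85% and 7.05%) had similar shares in both. Every motif was searched on both strands. These are counts of letters, and no binding was measured.

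Next, the transcript level of each complex was compared across the 3 cell types. Summed over all 93 genes, the level was 13226 and 8154 CPM in Naive replicates 1 and 2, 12015 and 15340 CPM in Th17, and 11100 and 11467 CPM in Th1. As mean ± SD (n = 2) this was 10690 ± 3586, 13677 ± 2351 and 11283 ± 259 CPM. The ratio of means was 1.28 for Th17 over Naive, 1.06 for Th1 over Naive and 0.825 for Th1 over Th17. The Naive libraries spanned both Th1 values and one Th17 value, so the groups overlapped in each comparison with Naive, and only Th1 and Th17 did not overlap. Complex V made up the largest part, with 5062 and 3124 CPM in Naive, 4103 and 5154 CPM in Th17, and 4209 and 4213 CPM in Th1. Complex I summed to 3119 and 1884, 3050 and 3897, and 2685 and 2780 CPM, and complex IV to 2799 and 1668, 2908 and 3829, and 2436 and 2624 CPM in the same order. The smallest two-sided p that an exact permutation of 4 libraries can give is 0.333, so none of these sums could pass a test.

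**Figure D1:**
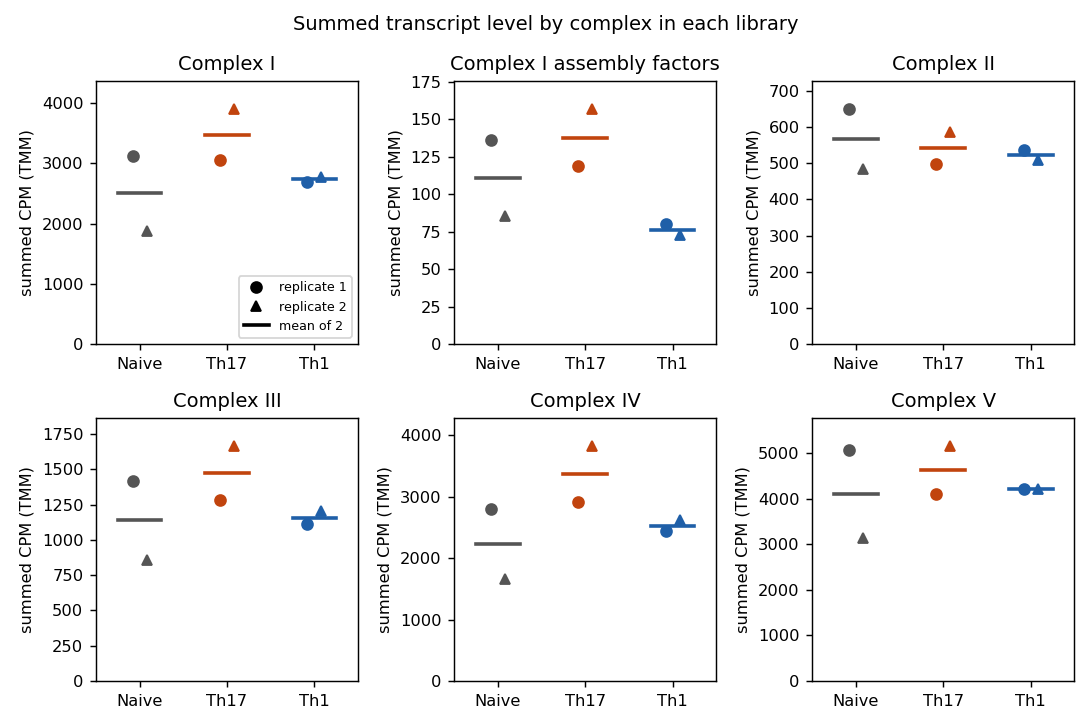
Summed TMM-scaled CPM (y axis) of the members of each complex and of the complex I assembly factors, by cell type, with 1 point per library and a bar at the mean of 2. The Naive points lie far apart in every panel, and Th17 and Th1 do not overlap for complex I, with Th17 at 3050 and 3897 CPM and Th1 at 2685 and 2780 CPM.

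The distance between the Naive libraries was shared by nearly all members. The median log2 difference of replicate 1 from replicate 2 was 0.75 over the 86 tested members, with 84 of 86 higher in replicate 1, while it was 0.02 over all genes tested. In Th17 the members were lower in replicate 1 (median -0.37, 7 of 86 higher), and in Th1 the libraries were close (median 0.07, 49 of 86 higher). Members made up 1.39% and 0.885% of all counts in Naive, 1.31% and 1.53% in Th17, with 1.04% and 0.989% in Th1. Therefore the medians of the comparisons with Naive are also given against either Naive library alone, on the log2(CPM + 0.5) scale, as an alternative added after the data were seen.

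**Figure D2:**
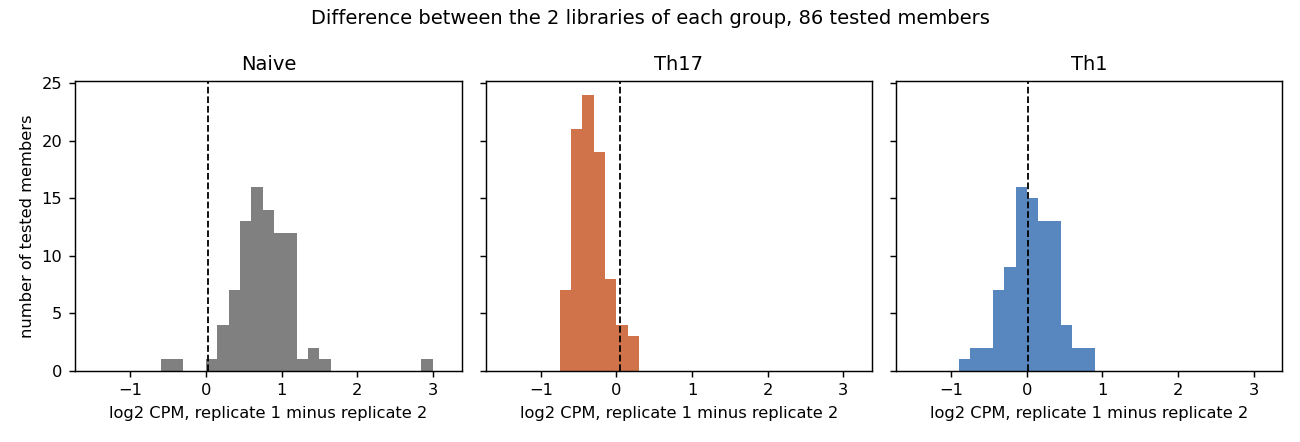
Number of tested members (y axis) by the log2 difference in CPM between replicate 1 and replicate 2 (x axis) for Naive, Th17 and Th1. The dashed line is the median over all tested genes, near 0 in each panel. The Naive members centre on 0.75, the Th17 members on -0.37 and the Th1 members on 0.07.

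The composition of the module within a library, which does not depend on the scaling between libraries, was closer between replicates. Complex IV made up 21.2% and 20.5% of the members' summed CPM in Naive, 24.2% and 24.96% in Th17, with 21.9% and 22.9% in Th1. Complex V went the other way, with 38.3% and 38.3% in Naive, 34.1% and 33.6% in Th17, with 37.9% and 36.7% in Th1. For both complexes the 3 cell types did not overlap, Th17 stood farthest from Naive, and Th1 lay between them. The lower share of complex V in Th17 did not reflect most of its 15 genes. Gene by gene, 10 of them rose from Naive to Th17 and 5 fell (median log2 fold change 0.43). Its 2 most abundant genes, *Atp5b* (-0.10) and *Atp5a1* (-0.41), were among those that fell. The share without these 2 genes was not examined. Complex I made up 23.6% and 23.1%, 25.4% and 25.4%, and 24.2% and 24.2%, in the same order and again without overlap. The share of complex II, the smallest, was lower in both Th groups than in Naive, at 4.91% and 5.93% in Naive, 4.15% and 3.82% in Th17, with 4.83% and 4.44% in Th1. Of its 4 members, 3 had positive log2 fold changes in both comparisons with Naive and 1, *Sdha*, had negative ones. Complex III kept within a narrow range, at 10.7% and 10.6% in Naive, 10.7% and 10.9% in Th17, with 10.01% and 10.5% in Th1. Its Th1 share lay below both other cell types without overlap, while Naive and Th17 overlapped. These shares are parts of 1 whole, so a higher share of one complex lowers the others, and with 2 against 2 libraries the smallest exact p is again 0.333.

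Within complexes I and V, the shares of their parts also differed between cell types. The 29 supernumerary subunits made up 74.9% and 72.1% of complex I CPM in Naive, 78.8% and 79.9% in Th17, with 78.1% and 76.9% in Th1. The remainder came from the 7 nuclear-encoded core subunits. In complex V, the 5 subunits of the catalytic head (F1: *Atp5a1*, *Atp5b*, *Atp5c1*, *Atp5d*, *Atp5e*) made up 65.1% and 68.4% in Naive, 57.8% and 54.2% in Th17, with 61.5% and 64.1% in Th1. The F1 genes did not move alike in Th17 vs Naive. The log2 fold changes were -0.41, -0.10 and -0.05 for *Atp5a1*, *Atp5b* and *Atp5d*, and 0.49 and 0.51 for *Atp5c1* and *Atp5e*. The 7 subunits of the stalk and membrane part other than the c-ring made up 23.2% and 21.2%, 30.6% and 33.5%, and 26.4% and 24.4%. The c-ring share overlapped among all groups, between 10.4% and 12.3%. Transcript length moved with these differences. The *Atp5a1* and *Atp5b* transcripts, which hold most of the F1 level, are 2471 and 1916 bases long. Across the 84 tested members with a place in a complex or its assembly the Spearman correlation of transcript length with the Th17 vs Naive log2 fold change was -0.35. Over 13056 tested genes, the correlation of exonic length with the same fold change was -0.22. Members at or below the median length of 892 bases had a median log2 fold change of 0.55 and the longer ones 0.37, and the difference between the Naive replicates was likewise larger in the shorter members (0.89 against 0.59). The part of length in the shift of composition was not tested.

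**Figure D3:**
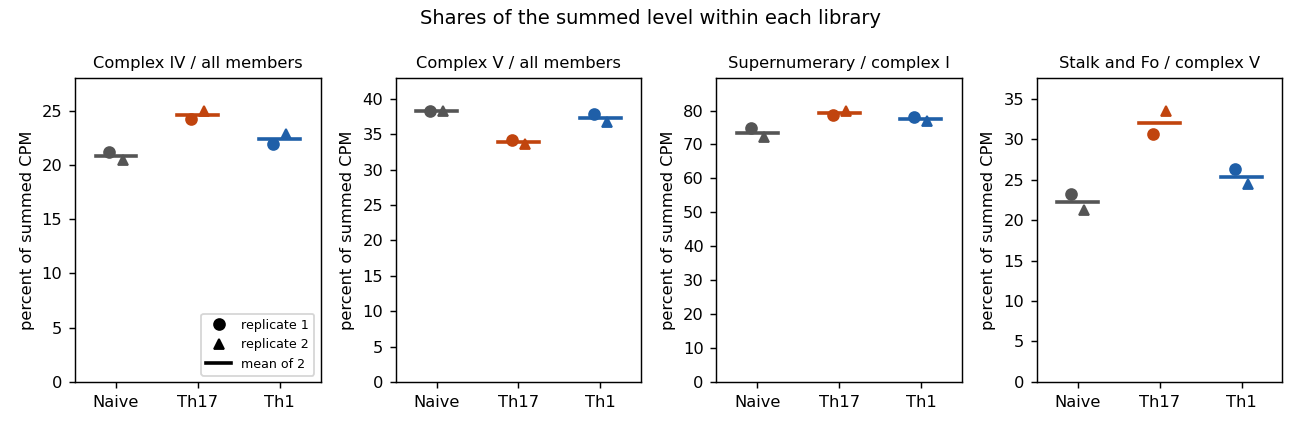
Percent of summed CPM (y axis, from 0) within each library for complex IV and complex V among all members, supernumerary subunits within complex I, and the stalk and Fo subunits within complex V. Points are libraries and bars the means of 2. The 3 cell types do not overlap in any panel, and Th17 is farthest from Naive, for instance 30.6% and 33.5% against 23.2% and 21.2% for stalk and Fo.

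Gene by gene, Th17 was first compared with Naive. Of 86 tested members, 72 had a positive log2 fold change and 14 a negative one, with a median of 0.45 against -0.02 over all genes tested. No member passed the thresholds of an adjusted p below 0.01 and an absolute log2 fold change above 1 (edgeR quasi-likelihood test, Benjamini-Hochberg over all genes tested), against a background of 4.01% of all tested genes called up and 1.43% called down. At an unadjusted p below 0.05, 18 members were higher and 3 lower (background 17.2% and 16.1%), and DESeq2 called 2 higher and 1 lower (background 7.69% and 4.92%). Under the second rule, an adjusted p below 0.05 with no fold threshold, 5 members were higher and 1 lower (background 9.37% and 6.51%). By plain separation, 32 of 86 members (37.2%) had both Th17 libraries above both Naive libraries, close to the background of 32.4%, and 4 (4.65%) had both below, against a background of 33.1%. The median was 0.14 against Naive replicate 1 alone, with 54 of 86 higher, and 0.96 against Naive replicate 2 alone, with 80 of 86 higher. The second rule was passed by 19 members without Naive replicate 1, by 1 (*Cox6b2*) without Naive replicate 2, by none without either Th17 library and by 3 without Th1 replicate 2. It was passed by 2 members, *Ndufv3* and *Cox6b2*, under scaling by library size alone and by 14 in DESeq2. Here and in the comparisons below, the share of all tested genes that passed the second rule in such alternative fits was not counted.

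Of the members that passed the second rule, *Ndufa11* and *Atp5j2* here and *Atp5d* further on lay outside the rule for named genes and were named after their values were seen. *Ndufv3*, an accessory subunit of the NADH-oxidizing arm of complex I (chr17:31520115-31531331, GRCm38), was at 61.5 and 50.3 CPM in Naive, 115 and 130 CPM in Th17, and 98.3 and 133 CPM in Th1. All 4 Th libraries lay above both Naive libraries, and the Naive replicates were close for this gene. Its log2 fold change was 1.13 (SE 0.27, adjusted p = 0.022) in Th17 and 1.05 (SE 0.27, adjusted p = 0.025) in Th1. Without Naive replicate 2 neither passed, with log2 fold changes of 0.98 and 0.91 and edgeR adjusted p-values of 0.11 and 0.12. These comparisons share the Naive libraries.

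*Cox5a*, a complex IV subunit encoded on chromosome 9 (57521274-57532426), was at 70.9 and 45.7 CPM in Naive against 109 and 139 CPM in Th17, without overlap (log2 fold change 1.09, SE 0.30, adjusted p = 0.036). It was at 115 and 90.1 CPM in Th1, also above Naive, although the test there gave an edgeR adjusted p of 0.095, and 12.8% of its exonic bases overlap a gene on the opposite strand. *Ndufa7* and *Ndufa11*, accessory subunits of complex I, were at 105 and 151 CPM and at 67.7 and 89.0 CPM in Th17, against 75.4 and 46.7 CPM and 45.4 and 31.8 CPM in Naive. Their log2 fold changes were 1.07 and 1.02, with adjusted p = 0.047 and 0.044 in edgeR. *Atp5j2*, a small membrane subunit of ATP synthase, was at 145 and 91.3 CPM in Naive against 212 and 256 CPM in Th17 (log2 fold change 0.99, edgeR adjusted p = 0.050, below the threshold before rounding).

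The 1 member lower in Th17 under the second rule was *Cox6b2*, the testis isoform of *Cox6b1*. It was at 38.4 and 4.56 CPM in Naive, 1.59 and 1.30 CPM in Th17, and 3.001 and 2.02 CPM in Th1. Both Naive libraries lay above all Th libraries, but Naive replicate 1 stood far above replicate 2. The log2 fold change was -3.88 in Th17 (SE 0.83, adjusted p = 0.014) and -3.08 in Th1 (SE 0.80, adjusted p = 0.026), and its size rests on Naive replicate 1. Without that library the log2 fold changes were -1.64 and -0.85, and neither passed (edgeR adjusted p = 0.086 and 0.40). *Cox6b2* gave 22.5% and 6.01% of the *Cox6b* CPM in Naive, 0.961% and 0.587% in Th17, with 2.07% and 1.63% in Th1.

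Complex by complex, the Th17 shift was uneven. The median log2 fold change in Th17 was 0.72 for the 14 tested members of complex IV, 0.52 for complex I, 0.43 for complex III, 0.43 for complex V, 0.31 for complex II and 0.24 for the complex I assembly factors. Within complex I it was 0.60 for the 28 tested supernumerary subunits, 27 of them with a positive value, and 0.13 for the 7 core subunits. These medians depended on the Naive library. Against Naive replicate 1 alone they were 0.32 in complex IV, 0.15 in complex I, -0.01 in complex III, 0.01 in complex V, -0.02 in complex II and -0.04 in the assembly factors, with 0.21 in the supernumerary and -0.02 in the core subunits of complex I. Against Naive replicate 2 alone they were 1.13, 1.02, 0.79, 0.96, 0.67 and 0.59, with 1.03 and 0.44, in the same order. Complex IV had the highest median and the supernumerary subunits lay above the core subunits against either library. *Sdha*, *Uqcrc1* and *Atp5a1* went against the majority. *Sdha*, the flavoprotein of complex II that oxidizes succinate, was at 328 and 292 CPM in Naive, 214 and 186 CPM in Th17, and 255 and 239 CPM in Th1. The other 3 complex II genes had positive values, from 0.30 to 0.57, and *Sdha* had a log2 fold change of -0.63 (edgeR adjusted p = 0.12). *Uqcrc1*, a core protein of complex III, was at 226 and 173 CPM in Naive against 132 and 129 CPM in Th17 (log2 fold change -0.61, edgeR adjusted p = 0.13). *Atp5a1*, the alpha subunit of ATP synthase, was at 1137 and 792 CPM in Naive against 704 and 747 CPM in Th17 (log2 fold change -0.41, edgeR adjusted p = 0.36). In all 3 genes both Th17 libraries lay below both Naive libraries, and with *Cox6b2* these were the only 4 members that did so. None of the 3 passed the test. *Atp5b*, the catalytic beta subunit of ATP synthase, was at 1398 and 834 CPM in Naive against 935 and 1152 CPM in Th17, with overlap (log2 fold change -0.10, edgeR adjusted p = 0.86).

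**Figure D4:**
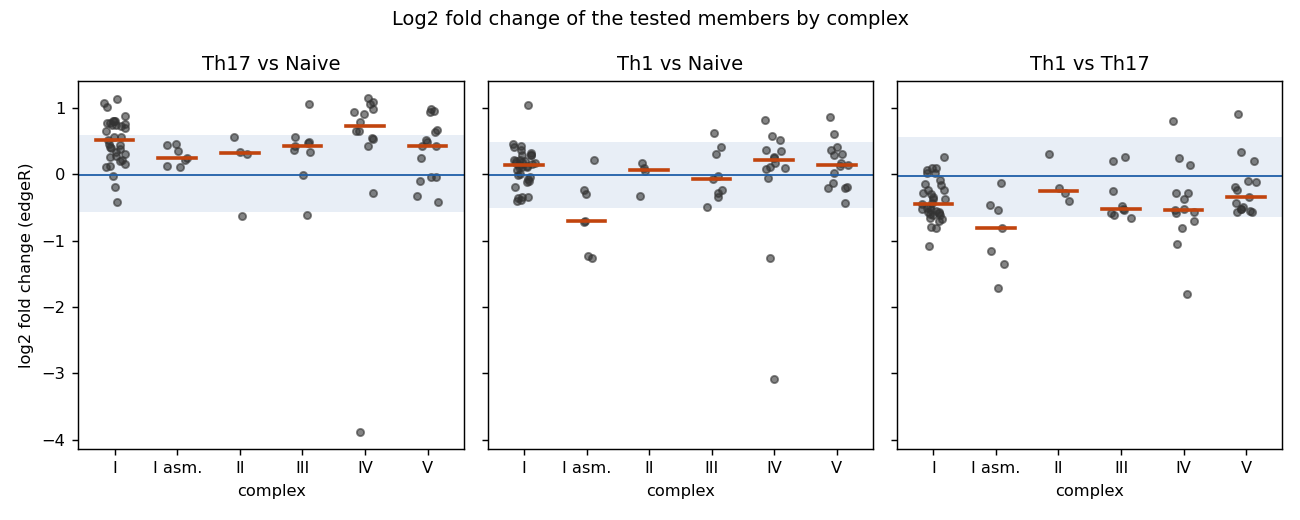
Log2 fold change (y axis) of each tested member in Th17 vs Naive, Th1 vs Naive and Th1 vs Th17, by complex (x axis, I asm. for complex I assembly factors). Orange bars are medians over members, and the blue line and band are the median and the middle 50% of all tested genes. Complex IV has a median of 0.72 in Th17 vs Naive, and the assembly factors one of -0.70 and -0.81 in the comparisons with Th1.

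Among the core subunits of complex I, the electron-input subunits were not alike in Th17. *Ndufv2* was at 94.2 and 53.4 CPM in Naive against 98.8 and 145 CPM in Th17 (log2 fold change 0.72), and *Ndufv1*, which binds NADH and flavin, was at 139 and 84.1 CPM and 77.9 and 89.7 CPM (log2 fold change -0.41). *Ndufs1*, *Ndufs3*, *Ndufs7* and *Ndufs8*, which hold iron-sulfur clusters or line the quinone path, ranged from -0.20 to 0.20. None of these 6 passed either rule in any comparison. *Cyc1*, cytochrome c1 of complex III, was at 190 and 108 CPM in Naive, 137 and 160 CPM in Th17, and 118 and 94.7 CPM in Th1, with a log2 fold change of -0.01 in Th17. *Uqcrh*, the hinge protein of the same complex, was at 180 and 120, 246 and 383, and 158 and 240 CPM, and *Cox7a2l*, a factor of respiratory supercomplexes, at 348 and 315, 505 and 811, and 278 and 470 CPM. Both lay above Naive in both Th17 libraries, with log2 fold changes of 1.06 and 0.99 and edgeR adjusted p-values of 0.063 and 0.083.

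Th1 was then compared with Naive. Here 53 of 86 members had a positive log2 fold change and 33 a negative one, with a median of 0.11 against -0.02 over all tested genes. This balance flipped with the scaling, since with library size alone 26 were higher and 60 lower and the median was -0.13, while the median of all tested genes moved to -0.26 in this comparison and to -0.24 in Th1 vs Th17. No member was called (background 4.64% up and 2.81% down), and 3 were higher and 5 lower at an unadjusted p below 0.05 (background 15.7% and 14.3%). DESeq2 called 1 higher and 4 lower (background 8.16% and 5.93%). Under the second rule 1 member was higher and 4 lower (background 9.1% and 7.33%). Both Th1 libraries lay above both Naive libraries in 13 members (15.1%, background 27.6%) and below in 10 (11.6%, background 28.4%), fewer in each direction than among all tested genes. The median was -0.24 against Naive replicate 1 alone and 0.53 against Naive replicate 2 alone, so its sign depended on the Naive library. The 5 members of the second rule became 0 without Naive replicate 1 or Th1 replicate 2, 2 without Th1 replicate 1 and 3 without Th17 replicate 1.

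The member higher in Th1 was *Ndufv3*, given above. The 4 lower were *Cox6b2*, *Ndufa4*, *Ndufaf4* and *Atp5s*, with log2 fold changes of -3.08, -1.27, -1.26 and -1.69 and edgeR adjusted p-values of 0.026, 0.030, 0.034 and 0.039. None of the 4 passed without Naive replicate 1, where the log2 fold changes were -0.85, -0.74, -0.997 and -1.31 and the edgeR adjusted p-values 0.40, 0.19, 0.15 and 0.17. Without Naive replicate 2 they were -3.91, -1.65, -1.48 and -1.98, and all 4 passed. *Atp5s* was at 6.71 and 4.21 CPM in Naive, 4.85 and 4.98 CPM in Th17, and 2.12 and 1.20 CPM in Th1, with as few as 19 counts in a Th1 library. The assembly factors of complex I stood apart from the subunits by their median, which was -0.70 over 7 genes, against 0.14 for the 35 tested subunits of complex I. The size of this median depended on the Naive library: it was -0.83 against replicate 1 alone, with 1 of 7 higher, and -0.08 against replicate 2 alone, with 3 of 7 higher. The complex I subunits had medians of -0.19 and 0.57 in the same order.

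Finally, Th1 was compared directly with Th17, which leaves out the Naive libraries except for the shared estimate of spread. The members were lower in Th1 in 70 of 86 cases, with a median log2 fold change of -0.47 against -0.03 over all tested genes. Both Th1 libraries lay below both Th17 libraries in 54 members (62.8%, background 35.1%) and above in 7 (8.14%, background 31.5%). The direction held under each scaling, with 78 of 86 lower under library size alone. The median lay between -0.63 and -0.23 when 1 of the 6 libraries was left out, the smaller size without Th17 replicate 2 and the larger without Th17 replicate 1. The shift was spread over the complexes, with medians of -0.54 in complex IV, -0.52 in complex III, -0.45 in complex I, -0.34 in complex V and -0.25 in complex II. Supernumerary subunits of complex I had a median of -0.50 and core subunits one of -0.15. Few members passed a test. 1 member was called lower and none higher (background 2.83% and 2.7%), and under the second rule 3 were lower and 1 higher (background 8.14% and 8.25%). DESeq2 called 3 lower and none higher (background 6.41% and 6.8%). The second rule was passed by 4 members in all, by 2 without Th17 replicate 1, by 1 without Th17 replicate 2, by 2 without Th1 replicate 1, by none without Th1 replicate 2 and by 7 without either Naive library.

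The called member was *Ndufa4* (chr6:11900292-11907497, GRCm38, minus strand, protein coding). It was at 131 and 69.4 CPM in Naive, 128 and 164 CPM in Th17, and 46.9 and 36.2 CPM in Th1. Both Th1 libraries were below all other libraries, and Naive and Th17 overlapped. The log2 fold change of Th1 against Th17 was -1.81 (SE 0.34, edgeR adjusted p = 0.0078). Without any 1 of the Th17 or Th1 libraries the adjusted p was 0.023 to 0.059 with the log2 fold change between -2.02 and -1.61, so the call needed all 4, and in DESeq2 it was 2.69e-05. Its paralog *Ndufa4l2* was not tested, with at most 0.0713% of the CPM of the pair in any library. The other 13 tested complex IV members had log2 fold changes from -1.05 to 0.80 in this comparison, and none of them passed either rule.

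*Ndufaf4* and *Ndufaf5* were the other members lower in Th1 than Th17. *Ndufaf4*, an assembly factor of complex I whose promoter is printed above, was at 31.7 and 22.5 CPM in Naive, 29.9 and 44.7 CPM in Th17, and 13.4 and 9.17 CPM in Th1. Again both Th1 libraries lay below all other libraries (log2 fold change -1.72 against Th17, SE 0.35, edgeR adjusted p = 0.011). *Ndufaf5* was at 12.9 and 10.1 CPM, 13.2 and 17.9 CPM, and 6.93 and 7.08 CPM in the same order, with no overlap among the 3 cell types (log2 fold change -1.15, edgeR adjusted p = 0.049). *Ndufaf4* did not pass the second rule without Th17 replicate 2 or Th1 replicate 2, and *Ndufaf5* did not without any 1 of the 4 Th libraries, where its log2 fold change ranged from -1.36 to -0.91. The whole set of 7 assembly factors was lower in Th1 than Th17, by a median of -0.81, and 6 of 7 did not overlap. Such separation was also seen in 62.8% of all tested members and in 35.1% of all tested genes, so it was not particular to the assembly factors. Their summed level was 136 and 85.8 CPM in Naive, 119 and 157 CPM in Th17, and 79.9 and 72.9 CPM in Th1, or 1.03% and 1.05%, 0.989% and 1.02%, and 0.720% and 0.636% of the module. *Ndufaf2* (19.0 and 6.83, 12.01 and 16.4, 6.71 and 4.30 CPM) did not pass the test, with an edgeR adjusted p of 0.090, and 65.6% of its exonic bases overlap a gene on the opposite strand.

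The member higher in Th1 than Th17 was *Atp5d*, the delta subunit of the F1 head, on chromosome 10 (80138632-80145818). It was at 219 and 173 CPM in Naive, 197 and 183 CPM in Th17, and 317 and 396 CPM in Th1. Both Th1 libraries were above all others and Naive and Th17 overlapped (log2 fold change 0.91, SE 0.28, edgeR adjusted p = 0.050, below the threshold before rounding). It did not pass under scaling by library size alone (log2 fold change 0.69, edgeR adjusted p = 0.11), with the filter at 10 counts in every library, in counts thinned to the smallest library, or without any 1 of the 4 Th libraries, where the log2 fold change ranged from 0.75 to 1.06. In Th1 vs Naive its log2 fold change was 0.86 with an edgeR adjusted p of 0.060. The other 4 F1 genes had log2 fold changes from -0.49 to 0.20 between Th1 and Th17.

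**Figure D5:**
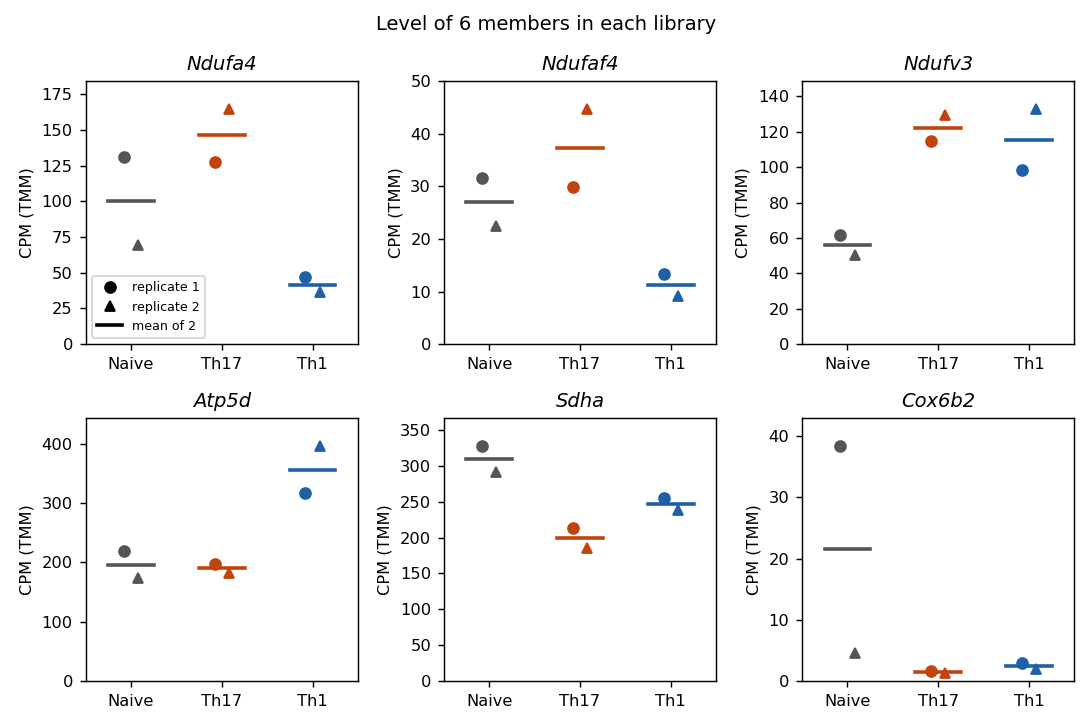
CPM (y axis, TMM-scaled, from 0) of 6 members by cell type, with 1 point per library and a bar at the mean of 2. *Ndufa4* and *Ndufaf4* are lowest in both Th1 libraries, *Ndufv3* is lowest in both Naive libraries, *Atp5d* is highest in both Th1 libraries, *Sdha* is highest in both Naive libraries, and *Cox6b2* rests on Naive replicate 1 at 38.4 CPM.

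Several subunits have isoforms expressed in different tissues, and these sets were read within each library. *Cox4i1*, *Cox6a1* and *Cox8a* each gave at least 99.9% of the CPM of their set in all 6 libraries, so the muscle, lung and testis forms (*Cox4i2*, *Cox6a2*, *Cox8b*, *Cox8c*) were at or near 0. *Cox7b2* and *Cox8c* had no count in any library. Of the *Cox7a* set, *Cox7a2l* gave 74.7% to 88.0% and *Cox7a2* 11.7% to 24.9%, with overlap among all groups, and the muscle form *Cox7a1* at most 0.328%. The 3 c-ring genes encode the same mature protein, and their proportions differed in Th17. *Atp5g3* gave 44.0% and 44.7% of the c-ring CPM in Naive, 57.4% and 58.2% in Th17, with 46.8% and 43.1% in Th1. *Atp5g2* gave 37.9% and 41.0%, 31.0% and 31.3%, and 41.1% and 46.3%, and *Atp5g1* gave 18.1% and 14.3%, 11.6% and 10.5%, and 12.1% and 10.6%. The Th17 values of *Atp5g3* and *Atp5g2* did not overlap those of either other cell type. None of the 3 genes passed either rule on its own, and 86.4% of the 100-base stretches of the *Atp5g2* transcript also occur in processed copies, so its counts depend on how such reads were assigned.

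Per kilobase of principal transcript, the members' levels spanned a wide range. The mean level over 6 libraries was highest for *Cox4i1* at 745 CPM per kb, followed by *Cox6a1* at 690 and *Atp5e* at 684 CPM per kb, and these neighbours overlapped between libraries. The median over tested members was 243 CPM per kb in complex V, 220 in complex IV, 105 in complex III, 86.2 in complex II and 79.2 in complex I. The assembly factors were at 11.2 CPM per kb. *Ndufs5*, a constitutive subunit of complex I, was listed at 0 counts in all 6 libraries, which allows a level of at most 0.0440 to 0.190 CPM from counting error alone. A processed copy of it, *BC002163*, had 11 to 138 counts, and 19.8% of the 100-base stretches of the *Ndufs5* transcript occur there. The cause of the 0 was not tested, and the 0 is not read here as absence of the transcript.

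Genes around the chain were examined from lists outside the rule. Those named are among the largest changes of their list, and their values with 1 library left out were not examined. Over all tested genes, 9.37% were higher and 6.51% lower in Th17 vs Naive under the second rule. The same shares were 9.1% and 7.33% in Th1 vs Naive, and 8.25% and 8.14% in Th1 vs Th17. Of 76 tested genes of the mitochondrial ribosome, 62 were higher in Th17 than Naive (median log2 fold change 0.33). In Th1 vs Th17, 11 of 76 were higher (median -0.42), and no gene was called in any comparison. Under the second rule *Mrpl33* was the 1 gene higher in Th17 than Naive (log2 fold change 1.27, edgeR adjusted p = 0.020). *Mrps28*, which fell from 53.0 and 23.5 to 13.5 and 14.1 CPM between the Naive and Th1 libraries, also passed it (log2 fold change -1.47, edgeR adjusted p = 0.028). The summed level of this list again differed between the Naive replicates, at 4304 and 2599 CPM. The 14 citric acid cycle genes had a median of -0.01 in Th17 and -0.28 in Th1 against Naive. There, *Ogdh*, the oxoglutarate dehydrogenase, was at 227 and 254 CPM in Naive, 120 and 103 CPM in Th17, and 188 and 220 CPM in Th1, with a log2 fold change in Th17 of -1.11 (edgeR adjusted p = 0.020), and *Idh2*, the mitochondrial NADP-dependent isocitrate dehydrogenase, was lower in Th1 than Th17 (log2 fold change -1.17, edgeR adjusted p = 0.029). Of 12 tested genes of pyruvate entry, *Pcx* (pyruvate carboxylase) passed the second rule in Th1 vs Th17, with a log2 fold change of -1.46 (edgeR adjusted p = 0.046).

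Of 37 other tested assembly factors of the chain, 9 were higher in Th1 than Th17. *Sdhaf1*, an assembly factor of complex II, was the 1 called lower, against a background of 2.83%. It was at 48.8 and 49.4 CPM in Naive, 79.7 and 98.7 CPM in Th17, and 29.5 and 35.5 CPM in Th1 (log2 fold change -1.46, edgeR adjusted p = 0.0063). Of 21 electron carrier and exchange genes, *Slc25a4*, an ADP/ATP carrier of the inner membrane, passed the second rule against Naive in both Th groups. It was at 134 and 82.3 CPM in Naive, 246 and 323 CPM in Th17, and 233 and 310 CPM in Th1, with log2 fold changes of 1.40 and 1.33 (edgeR adjusted p = 0.020 and 0.021). Of 14 regulators of mitochondrial biogenesis, 1, *Myc*, was called higher in Th1 than Th17, at 272 and 529 CPM against 84.2 and 74.7 CPM. Its log2 fold change was 2.33 (edgeR adjusted p = 0.0027), and the background of such calls was 2.7%. *Polrmt*, the mitochondrial RNA polymerase, and *Ppargc1b*, a coactivator of respiratory genes, were lower in Th17 than Naive under the second rule (log2 fold changes -1.32 and -1.35, edgeR adjusted p = 0.019 and 0.038).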

How the data were processed

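RNA-Seq read counts per gene symbol were analysed for 6 libraries, 2 each of Naive, Th17 and Th1. The authors deposited raw counts, made with HISAT2 2.2.1 and HTSeq 0.13.5 on mm10 per the labels' processing notes. Duplicate removal is stated in the methods, and whether it reached these counts was not tested. The study's code counted reads with HTSeq's reverse-strand setting. Whether the Smart-seq2 libraries keep strand was not tested, so reads of genes that overlap on opposite strands (*Cox5a*, *Ndufaf2*) may not be told apart. Counts were fitted across all genes with edgeR 4.0.16 (TMM, filterByExpr, quasi-likelihood test, cell type only, R 4.3.3), with Benjamini-Hochberg adjustment. The call rule (adjusted p below 0.01, absolute log2 fold change above 1) follows the study. DESeq2 1.42.0 was an alternative. Standard errors come from the F statistic. The replicates were stated as independent, and n is 2 per group. The edgeR fit recovered large known changes in simulated data. These were larger than the changes of most members, and no shift shared by many genes between replicates was simulated. The simulation therefore does not bear on smaller changes. Positions and lengths are from GENCODE vM21, and promoters from RefSeq. Members and gene lists were chosen with earlier results of these data known. Named genes were the core and complex II subunits, isoform sets, the 3 highest per complex, the 6 largest changes per comparison, called members and up to 4 genes per related list. Some genes that this rule or the marker lists take in are not reported here.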

Additional observations from a re-analysis of the deposited data

Results flagged for a closer look

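In 4 of the 86 tested members the change from Naive differed between Th17 and Th1, by the direct test of Th1 against Th17 (edgeR, adjusted p below 0.05). Over all tested genes, 8.14% were lower and 8.25% higher in Th1 than Th17 by the same rule, so such differences were not frequent among the members. The difference was -1.81 on the log2 scale for *Ndufa4*, -1.72 for *Ndufaf4*, -1.15 for *Ndufaf5* and 0.91 for *Atp5d*. *Atp5d* lost its pass under scaling by library size alone, with the filter at 10 counts in every library, in thinned counts and without any 1 of the 4 Th libraries, and *Ndufaf5* lost it without any 1 of those libraries. For *Ndufaf5* both Th17 libraries also lay above both Naive libraries and both Th1 libraries below them, with log2 fold changes of 0.44 and -0.71, and neither of these passed a test on its own. The groups had only 2 libraries each, too few to look for single outlying libraries.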

How the results depend on the processing

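The number of members called was 0 in Th17 vs Naive, 0 in Th1 vs Naive and 1 in Th1 vs Th17, and depended on the tool and threshold. DESeq2 called 3, 5 and 3 members. Without a filter on low counts edgeR called 5, 4 and 3, and with an adjusted p below 0.05 it passed 6, 5 and 4 without and 5, 5 and 3 with the fold threshold. The number of all genes called also changed with the setting. Without the filter, 90 members and 17846 genes in all were tested. Of all these genes, 1203 were called up and 951 down in Th17 vs Naive. The counts were 1287 and 972 in Th1 vs Naive, and 1188 and 1044 in Th1 vs Th17. Shares over all genes for DESeq2 are given with each comparison above. With library size alone, 2, 4 and 4 members had an adjusted p below 0.05. In Th1 vs Th17 the DESeq2 size factors, the 4 libraries alone and counts thinned to the smallest library each gave 2 (*Ndufa4* and *Ndufaf4*), and in Th17 vs Naive the 4 libraries alone gave 1 (*Cox6b2*). The replicate block gave 1, 1 and 2 calls, and under it *Atp5d* and *Ndufaf5* no longer had an adjusted p below 0.05 in Th1 vs Th17. Between Naive and Th17, Naive and Th1, and Th17 and Th1, the replicate differences correlated at -0.23, 0.17 and 0.08 over all tested genes. Over the members the values were -0.04, 0.35 and 0.18. Such values cannot decide whether the replicate numbers pair the libraries. Replicate 1 was the deeper library in every group, at 64826757, 59973041 and 69080017 counts in Naive, Th17 and Th1. Replicate 2 had 18608805, 17742158 and 18347752 counts, so depth and replicate number cannot be told apart. Leaving out 1 library gave 0 to 1, 0 to 2 and 0 to 2 calls. The median log2 fold change ranged from 0.13 to 0.98 in Th17 vs Naive, from -0.24 to 0.53 in Th1 vs Naive and from -0.63 to -0.23 in Th1 vs Th17 when 1 library was left out. Against Naive replicate 2 alone it was 0.96 and 0.53, and against Naive replicate 1 alone -0.24 in Th1, alternatives chosen after seeing the data. With other scalings, filters and tools the medians moved by less than the spread between replicates of the members' mean log2 CPM. That spread was 0.34, larger than the Th1 vs Naive median of 0.11, so for this median the criterion does not show stability. The Th1 vs Naive median became -0.13 under scaling by library size alone. The cause of the changes between settings was not tested. No called value changed direction. Levels under about 0.2 CPM are not resolved at the depth of the smallest library.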

Other observations

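A gene outside the rule, *AA467197*, was looked up after the values of *Ndufa4* were seen, since its product (also known as NMES1) is a paralog of the Ndufa4 protein. It had 9 and 1 counts in Naive, 601 and 292 in Th17 and, in Th1, 2106 and 401, or 0.132 and 0.0495, 9.20 and 16.5, and 32.6 and 25.4 CPM. All 4 Th libraries lay above both Naive libraries, with an edgeR adjusted p of 9.63e-05 in Th17 and 4.38e-05 in Th1. Between Th1 and Th17 the log2 fold change was 1.18, with both Th1 libraries above both Th17 libraries and an edgeR adjusted p of 0.066. In the same libraries *Ndufa4* was lowest in Th1, as given above. No relation between the genes was tested.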
